A study of Mus musculus with 18 samples.

Results

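The vascular endothelial growth factors (VEGF) and platelet-derived growth factors (PDGF) are related secreted proteins that signal through receptor tyrosine kinases. Their histone marks were read in bone marrow-derived macrophages (BMDM) for 10 named genes of the 21938 protein-coding genes of GENCODE vM21 (mm10), namely the ligand genes Vegfa, Vegfb, Vegfc, Pgf, Pdgfa, Pdgfb, Pdgfc and Pdgfd and the receptor genes Pdgfra and Pdgfrb. The 10 genes were chosen by name, with earlier results of these data known. Every peak of H3K27me3 (trimethylation of lysine 27 of histone H3) and H3K27ac (acetylation of the same residue) was listed that touched the window of a gene, that is, its body with 5 kb added before the start and 1 kb added after the end.

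The cells came from untreated male mice and were grown from marrow with L929-conditioned medium, as a source of macrophage colony-stimulating factor. WT mice carry the strain label C57BL6, mdx mice, which carry a mutation in the dystrophin gene, the label Dmdmdx-4Cv, and mdxTLR4-/- mice, which also lack Toll-like receptor 4, the label Bl6/Bl10. Each genotype had 2 H3K27me3 ChIP libraries with 2 inputs, whereas H3K27ac rested on 2 WT, 2 mdx and 1 mdxTLR4-/- library with 1 input that has no genotype label. Ages in the labels run from 12 to 17 weeks for the H3K27me3 ChIP libraries and from 18 to 23 weeks for the H3K27ac samples, but they step up by exactly 1 week per sample in accession order, over all 18 samples from 6 to 23 weeks, so it is uncertain that they are true ages. If they are, age cannot be told apart from genotype, nor can strain if its labels hold, although by the study's methods WT mice, mdx mice and those lacking TLR4 alone shared the C57BL/6J background.

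The authors merged the replicates and called broad peaks, so that each mark and genotype has 1 deposited peak list, with a count of ChIP reads per peak. Hence there was no spread between mice, no p-value was computed, and the intervals given cover counting error only. The H3K27me3 lists held 28143 peaks with 8331331 reads in WT, 41780 with 10199918 in mdx and 36488 with 7358418 in mdxTLR4-/- cells, and the H3K27ac lists 12076 to 15665 peaks with only 168487 to 274020 reads. The depth of the libraries behind these sums is unknown here. All 10 macrophage marker genes tested, among them Csf1r, Spi1 and Lyz2, had an H3K27ac peak in each list. H3K27ac peaks also touched 2 of 9 fibroblast and mural cell genes in WT and mdx and 4 of 9 in mdxTLR4-/- BMDM, 3, 4 and 4 of 7 endothelial genes (in the order WT, mdx, mdxTLR4-/-), 1, 0 and 0 of 5 T cell genes, 2, 1 and 1 of 4 B cell genes, 0 of 4 neutrophil genes and 1 of 3 megakaryocyte genes. The share of such cells in the cultures was not tested, and in bulk chromatin fewer marked cells cannot be told apart from a weaker mark per cell. A peak list shows neither the dystrophin mutation nor the loss of Tlr4.

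VEGF proteins bind receptors on endothelial cells and drive the growth of blood and lymph vessels, while PDGF proteins act on fibroblasts, smooth muscle and pericytes through the receptors PDGFRα and PDGFRβ. Macrophages are a known source of VEGF-A and of PDGF in injured tissue, including muscle. H3K27me3 is laid down by Polycomb repressive complexes and marks silenced genes, often over long domains, whereas H3K27ac marks active promoters and enhancers.

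H3K27me3 peaks touched the windows of 8 of the 10 genes in each of the 3 genotypes, where 38.4% (WT), 41.3% (mdx) and 39% (mdxTLR4-/-) of all protein-coding genes had a peak, and 34.8% had one in all 3 lists. The genes without a peak in any list were Vegfb and Pdgfd, as were 55.5% of all protein-coding genes. Coverage, the percentage of a window that lies under peaks, ranged in WT BMDM from 0% to 96.0%, with a median of 45.7% against 0% for all protein-coding genes. The windows of 5 genes (Vegfa, Pgf, Pdgfa, Pdgfb and Pdgfrb) were covered over at least 50% of their length in WT BMDM, as were 16.6% of all protein-coding genes. This held for 3 of the genes in mdx BMDM (16.3% of all) and for 4 in mdxTLR4-/- BMDM (14.9% of all).

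From WT to mdx BMDM, coverage fell by at least 10 percentage points in 1 of the 10 genes, Vegfa, compared with 5.51% of all protein-coding genes. It rose by at least 10 points in 0 of the 10, compared with 4.9% of all. From mdx to mdxTLR4-/- BMDM, the coverage of Pgf was lower by at least 10 points (7.73% of all genes) and that of Pdgfrb was higher (2.52% of all). Between WT and mdxTLR4-/- BMDM, which is not independent of the other comparisons since it uses the same lists, Vegfa and Pgf were lower (8.41% of all genes) and 0 of the 10 were higher (2.61% of all). Of the genes with a peak in either list compared, 12.8% were lower and 11.3% higher in mdx than in WT BMDM, 17.8% lower and 5.81% higher in mdxTLR4-/- than in mdx BMDM, and 20.1% lower and 6.23% higher in mdxTLR4-/- than in WT BMDM. With 1 or 2 genes of 10, these counts say little about the family, and the genes differed from each other in what changed. The next largest differences from WT to mdx, below the limit of 10 points, were a rise of 8.47 points at Pdgfra and falls in coverage, by 8.04 points at Pdgfa and by 7.97 at Pdgfb.

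**Figure D1:**
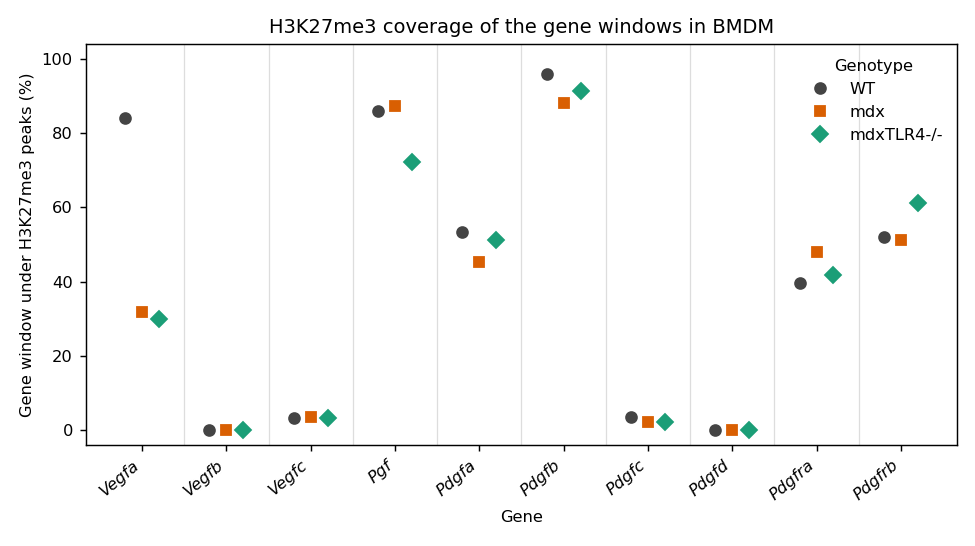
Percentage of each gene window under H3K27me3 peaks (y axis) for the 10 genes (x axis), with 1 point per genotype from 1 merged peak list each, so that no error bars exist. Vegfa drops from 84.1% in WT to 31.7% in mdx and 29.8% in mdxTLR4-/- cells, while the points of the other genes span at most 15.0 points per gene.

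Vegfa (ENSMUSG00000023951.17, chr17:46016993-46032369, minus strand) encodes VEGF-A, the main driver of blood vessel growth. The upstream sequence is shown because no H3K27me3 peak covered the start of the gene in any of the lists although long domains lay on both sides. It comprises the 250 bases before the RefSeq start nearest to the GENCODE start (GRCm38.p6, chr17:46032378-46032627, minus strand), with CG dinucleotides, the sites of DNA methylation, in capitals here and in the sequences that follow.
Vegfa: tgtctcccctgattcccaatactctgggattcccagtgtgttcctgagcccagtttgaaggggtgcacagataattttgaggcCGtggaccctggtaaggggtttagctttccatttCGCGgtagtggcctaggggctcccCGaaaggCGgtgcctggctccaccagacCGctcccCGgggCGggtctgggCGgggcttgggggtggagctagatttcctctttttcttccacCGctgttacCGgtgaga

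Coverage at Vegfa stood at 84.1% in WT, 31.7% in mdx and 29.8% in mdxTLR4-/- cells. The decrease by 52.4 points from WT to mdx BMDM was matched or exceeded by 32 other protein-coding genes. Earlier results of these data had already named Vegfa for this fall, so its size is a description.

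The peaks showed where the difference lay. In WT BMDM, a peak of 12.8 kb (chr17:46017801-46030600) with 270 reads lay inside the gene body and touched 7 of the 8 exons of the transcript ENSMUST00000113520.7. In mdx BMDM the only peak inside the body was 2.8 kb long (chr17:46019401-46022200) with 71 reads, and in mdxTLR4-/- BMDM it was 2.2 kb long (chr17:46027401-46029600) with 48 reads. Both remnants lay within the bounds of the WT peak, but at opposite ends of it. Of the bases of the WT body peak, 21.9% remained under peaks in mdx and 17.2% in mdxTLR4-/- cells. Only 1 piece was left in each list, so by definition there was no inner gap and all uncovered bases lay outside that piece. Thus the body peak was partly lost in mdx BMDM (20% to 80% of the bases remaining) and lost in mdxTLR4-/- BMDM (under 20%), and not split.

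The body peak was weak. Its density of 21.1 reads per kb was 1.36 times the 1st percentile of the WT list and lay at percentile 27.1 of that list. Among the 7071 WT peaks of the same density quartile (20.8 to 24.5 reads per kb), 44.6% were partly or wholly lost in mdx and 63.1% in mdxTLR4-/- cells. When only peaks of at least 1.5 times the 1st percentile were kept in each list, the body peak dropped out in WT as well, and coverage of the window then decreased by 5.65 points from WT to mdx BMDM, which ended the call.

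The domains on either side of Vegfa were strong and long in each genotype. Downstream of the gene, a WT peak of 207.2 kb (chr17:45809801-46017000) held 17221 reads at a density of 83.1 per kb, at percentile 99.9 of its list. In mdx BMDM its counterpart was 202.8 kb long with 19968 reads and in mdxTLR4-/- BMDM 205.2 kb with 16812 reads. In both cases it remained 1 peak over 97.9% and 99.0% of the WT bases. It reached 1008 bp into the Vegfa window in WT and 208 bp in mdxTLR4-/- BMDM, and it ended 2193 bp short of the window in mdx BMDM. Consequently the reads in peaks touching the window dropped from 21130 in WT to 2724 in mdx BMDM and stood at 20190 in mdxTLR4-/- BMDM, a drop that came mainly from this edge and not from fewer reads in the domain.

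Upstream of the gene, a WT peak of 70.2 kb (chr17:46033201-46103400) held 3639 reads. In mdx BMDM it consisted of a peak of 40.8 kb with 2653 reads and a peak of 28.6 kb with 1489 reads, separated by 0.8 kb, and in mdxTLR4-/- BMDM of a peak of 66.8 kb with 3330 reads and a peak of 2.2 kb with 41 reads, separated by 1.0 kb. With 98.6% and 98.3% of its bases still under peaks, this domain was split and not lost. No protein-coding gene lies inside either long domain, and the nearest protein-coding genes are Mrps18a at 78.6 kb and 1600014C23Rik at 283 kb. The start of Vegfa lay in a gap of 2.6 kb in WT, 11.2 kb in mdx and 3.8 kb in mdxTLR4-/- cells. A RefSeq start inside the gene (its 250 upstream bases at chr17:46025164-46025413) lay under the body peak in WT BMDM and under no peak in the other genotypes. No H3K27ac peak touched the Vegfa window in any list.

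**Figure D2:**
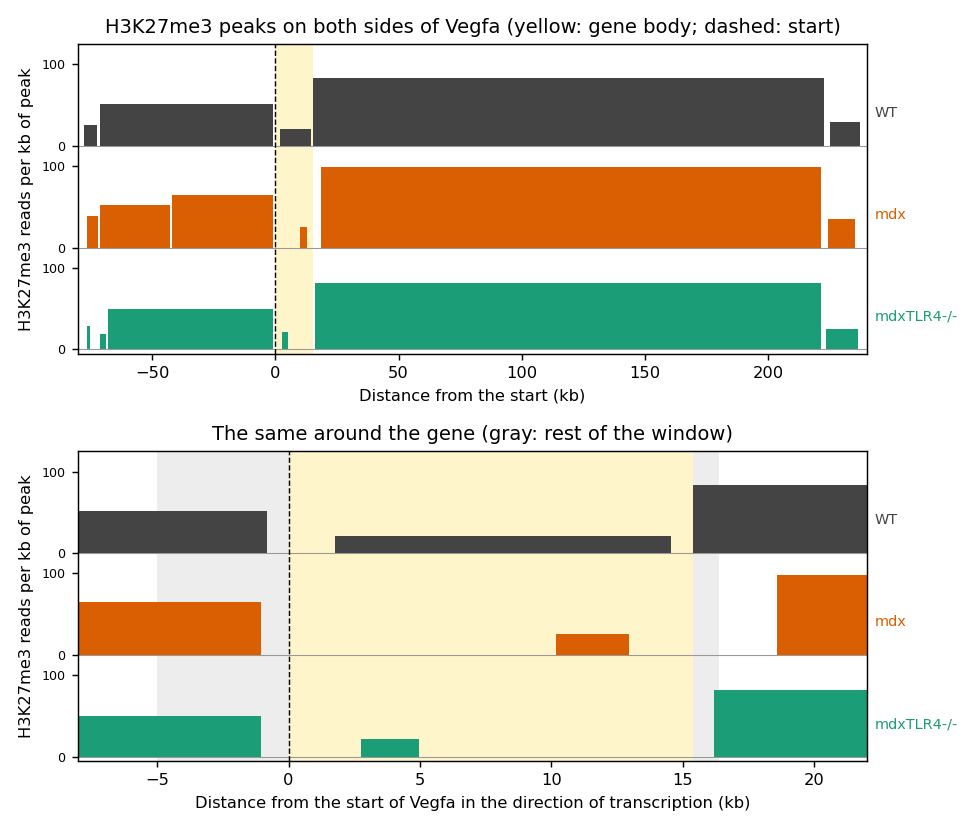
H3K27me3 peaks by genotype around Vegfa, with distance from its start in kb on the x axis (positive values run into and past the gene) and reads per kb of peak as bar height, in a wide (top) and a close view (bottom). The 207.2 kb WT domain past the gene and the 70.2 kb domain before it have counterparts in each genotype, whereas the low 12.8 kb WT peak in the body (21.1 reads per kb) is reduced to 2.8 kb in mdx and 2.2 kb in mdxTLR4-/- cells.

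The other VEGF ligand genes covered the whole range of the mark. Vegfb (ENSMUSG00000024962.13, chr19:6982473-6987651, minus strand), whose product binds VEGFR1, had no H3K27me3 peak nearer than 50.9 kb to its start in any list. Vegfc (ENSMUSG00000031520.6, chr8:54077606-54187096, plus strand) encodes the ligand of VEGFR3 that drives lymphatic growth, and it carried a short peak at its start. The 250 bases before the RefSeq start (GRCm38.p6, chr8:54077282-54077531, plus strand) are shown because they lay wholly under this peak in all 3 lists and hold 30 CG dinucleotides, a number that 5.94% of 32841 RefSeq promoters reach.
Vegfc: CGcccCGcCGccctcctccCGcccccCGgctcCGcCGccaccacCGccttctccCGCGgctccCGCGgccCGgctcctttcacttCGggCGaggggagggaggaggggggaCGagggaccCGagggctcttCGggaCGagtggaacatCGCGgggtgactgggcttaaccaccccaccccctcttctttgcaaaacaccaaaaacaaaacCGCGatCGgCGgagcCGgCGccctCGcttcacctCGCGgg

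The peak over the Vegfc start was 3.6 kb long with 115 reads in WT, 4.0 kb with 120 reads in mdx and 3.8 kb with 111 reads in mdxTLR4-/- cells. As deposited, these counts are equal within counting error: the unscaled ratio of read density to WT was 0.939 (95% interval 0.721 to 1.22) in mdx and 0.914 (0.698 to 1.20) in mdxTLR4-/- BMDM. In mdx BMDM it was 0.767 per 1000000 reads in peaks, 0.807 relative to the 1st percentile of density and 0.771 relative to shared regions. In mdxTLR4-/- BMDM the scaled ratios were 1.04, 1.00 and 0.953 in the same order. Vegfc thus kept its peak at nearly the same place in every genotype. Since its window is 115 kb long, its coverage was only 3.12%, 3.46% and 3.29%.

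Pgf (ENSMUSG00000004791.7, chr12:85166635-85177790, minus strand) encodes placental growth factor, another ligand of VEGFR1. Its coverage was 86.0% in WT, 87.2% in mdx and 72.2% in mdxTLR4-/- cells. The main peak covered the start in each list and spanned 16.4 kb with 662 reads in WT (chr12:85170001-85186400), 12.8 kb with 574 reads in mdx and 16.4 kb with 543 reads in mdxTLR4-/- cells. In mdx BMDM, the upstream end of this domain was set off by a gap of 1.4 kb, with 91.5% of the WT bases still under peaks. The lower coverage in mdxTLR4-/- BMDM came mostly from a second, weak peak at the 3' end of the gene, which had 78 reads over 3.8 kb in WT (chr12:85163801-85167600) and 75 reads over 3.4 kb in mdx BMDM, and no counterpart in mdxTLR4-/- BMDM. With equal numbers of peaks per list, or with only peaks of at least 1.5 times the 1st percentile of density, coverage of Pgf decreased by 2.39 points from mdx to mdxTLR4-/- BMDM, and within 2.5 kb of the start the difference was 0, so that the call ended in each case. The 3' peak lay at percentile 23.2 of density in WT, in the lowest quartile, of which 86.3% of 7036 WT peaks were partly or wholly lost in mdxTLR4-/- BMDM.

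Pdgfa and Pdgfb encode the classical PDGF chains. Pdgfa (ENSMUSG00000025856.15, chr5:138976014-138997370, minus strand) had a coverage of 53.3% in WT, 45.2% in mdx and 51.1% in mdxTLR4-/- cells. A peak over its start measured 11.8 kb with 445 reads in WT BMDM, and was split upstream of the window's edge in the other genotypes, by a gap of 0.8 kb in mdx and of 1.0 kb in mdxTLR4-/- cells. The pieces over the start measured 6.0 kb with 217 reads in mdx and 6.4 kb with 176 reads in mdxTLR4-/- cells. This is the outermost GENCODE start of Pdgfa. The 250 upstream bases of its RefSeq starts inside the gene lay under no H3K27me3 peak in mdx and mdxTLR4-/- BMDM. In WT BMDM a peak covered 119 bp of those at chr5:138994282-138994531 and none of those at chr5:138994945-138995194. No H3K27ac peak touched these bases in any list. A second peak inside the gene shrank at its ends, from 8.4 kb with 269 reads in WT to 6.6 kb with 267 reads in mdx and 7.6 kb with 252 reads in mdxTLR4-/- cells. With 78.6% of its bases remaining in mdx BMDM it fell just under the limit of 80% and was counted as partly lost, although its read counts as deposited, 269 and 267, hardly differed. These counts are unscaled. Over the whole 27.4 kb region at Pdgfa, the ratio of reads in mdx to WT was 0.928 as deposited and 0.758 per 1000000 reads in peaks.

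Pdgfb (ENSMUSG00000000489.7, chr15:79995874-80014977, minus strand) was the most widely covered of the 10 genes, with 96.0% in WT, 88.0% in mdx and 91.2% in mdxTLR4-/- cells. In WT BMDM its start lay within a peak of 17.8 kb (chr15:80003001-80020800) with 581 reads. In both mdx and mdxTLR4-/- BMDM this peak was interrupted by the same gap of 1.2 kb (chr15:80013801-80015000), which held the start and the next 1.18 kb of the gene. The flanking peaks had 37.3 and 32.3 reads per kb in mdx BMDM, and 31.5 and 36.5 in mdxTLR4-/- BMDM, against 32.6 for the WT peak. A further gap of 1.0 kb (chr15:80017601-80018600) lay upstream of the start in mdxTLR4-/- BMDM. The other WT peak, of 24.6 kb with 854 reads over the 3' part of the gene, was shorter in mdx BMDM (20.4 kb, 745 reads), with 5527 bp instead of 7127 bp inside the window. No H3K27ac peak touched the Pdgfb window in any list.

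Pdgfc and Pdgfd encode chains that are secreted in a latent form and activated by proteolysis. Pdgfc (ENSMUSG00000028019.9, chr3:81036416-81214040, plus strand) was the only gene of the 10 with H3K27ac peaks in every list, as had 26.7% of all protein-coding genes, and had a short H3K27me3 peak at its start. The 250 bases before the start (GRCm38.p6, chr3:81036166-81036415, plus strand) are shown because the last of them reach the place where the marks differed between genotypes. They hold 3 CG dinucleotides, below the median of 6 over all promoters.
Pdgfc: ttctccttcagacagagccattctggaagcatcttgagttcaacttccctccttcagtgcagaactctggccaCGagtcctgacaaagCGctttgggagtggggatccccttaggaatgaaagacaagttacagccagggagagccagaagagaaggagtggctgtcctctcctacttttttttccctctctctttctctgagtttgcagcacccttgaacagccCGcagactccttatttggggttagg

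The WT peak over the Pdgfc start was 6.2 kb long (chr3:81032801-81039000) with 118 reads (a density of 19.0 per kb). In mdx BMDM it consisted of pieces of 2.4 kb with 86 reads and 1.6 kb with 50 reads on either side of a gap of 1.0 kb (chr3:81036401-81037400) that held the start. An H3K27ac peak of mdx BMDM (chr3:81036401-81037600) with 8 reads covered this gap. In mdxTLR4-/- BMDM 1 H3K27me3 peak of 4.0 kb with 76 reads covered the start, and no H3K27ac peak lay there. Further into the first part of the gene, WT BMDM had 3 H3K27ac peaks with 6, 10 and 7 reads, the last of which overlapped a peak of mdxTLR4-/- BMDM (chr3:81051201-81051800, 6 reads), and a peak at 64.8 kb past the start (65.0 kb in mdxTLR4-/- BMDM) was present in mdx (9 reads) and mdxTLR4-/- BMDM (7 reads). With so few reads, the presence or absence of an H3K27ac peak in a list is close to the detection limit of 5 reads, the smallest count of any peak in the H3K27ac lists.

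The start, here the outermost GENCODE start of each gene, lay under a WT H3K27me3 peak in 7 of the 10 genes (23.5% of all protein-coding genes). In mdx BMDM 5 of the 10 starts were covered (23.8% of all) and in mdxTLR4-/- BMDM 6 (22.7% of all), and 5 were covered in all 3 lists (20.1% of all), namely those of Vegfc, Pgf, Pdgfa, Pdgfra and Pdgfrb. Of the 7 starts covered in WT, those of Pdgfb and Pdgfc were uncovered in mdx BMDM, compared with 8.82% of 5158 such starts over all genes, and in both genes the start lay in an inner gap of up to 2 kb, which held for 1.76% of all. In mdxTLR4-/- BMDM only Pdgfb remained uncovered (10.7% of all), again in an inner gap (1.34% of all). The nearest peak lay only 0.024 kb from the Pdgfb start in both genotypes and 0.016 kb from the Pdgfc start in mdx BMDM. Both distances are below the 200 bp window of the peak caller. Pdgfb and Pdgfc were singled out for their uncovered starts after their values were seen.

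**Figure D3:**
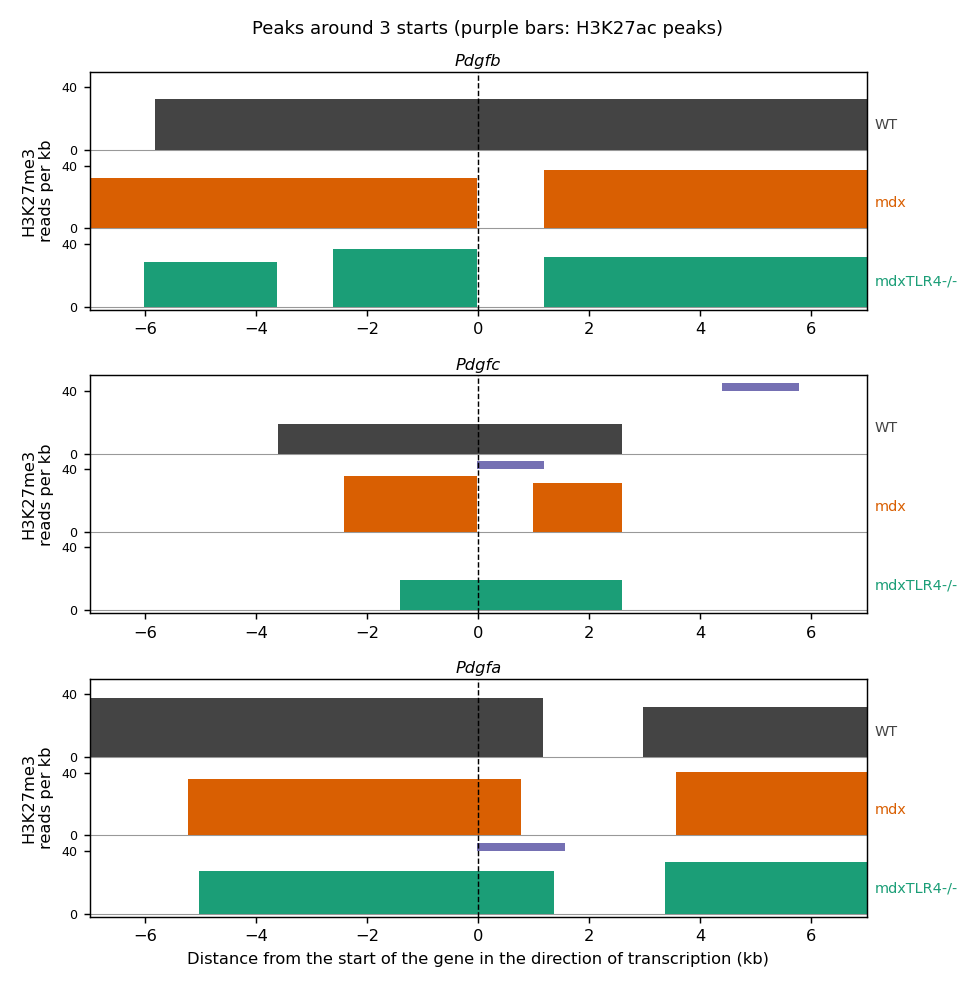
H3K27me3 peaks around the starts of Pdgfb, Pdgfc and Pdgfa, with distance from the start in kb on the x axis and reads per kb of peak as bar height, and H3K27ac peaks as purple bars of fixed height. At Pdgfb the same 1.2 kb gap holds the start in mdx and mdxTLR4-/- BMDM. At Pdgfc a 1.0 kb gap with an H3K27ac peak holds it in mdx BMDM only, and at Pdgfa the outermost GENCODE start stays covered.

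Pdgfd (ENSMUSG00000032006.15, chr9:6168584-6378850, plus strand) had neither mark in any list. Its start lay in stretches of 2920 to 3866 kb without an H3K27me3 peak, and the nearest protein-coding genes are 550 kb (Dync2h1) and 796 kb (Casp12) away. Its upstream bases (GRCm38.p6, chr9:6168236-6168485, plus strand) are given for contrast with Vegfc and hold 3 CG dinucleotides. They were the only ones of the 11 promoters examined, which left out Pdgfb and Pdgfrb, with the letters TATAAA. Of all promoters, 12.4% hold these letters on either strand.
Pdgfd: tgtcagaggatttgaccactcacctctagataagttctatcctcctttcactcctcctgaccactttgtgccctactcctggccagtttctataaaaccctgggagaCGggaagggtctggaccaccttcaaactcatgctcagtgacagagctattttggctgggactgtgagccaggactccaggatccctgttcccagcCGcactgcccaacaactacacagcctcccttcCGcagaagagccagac

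PDGFRα is the receptor that marks mesenchymal progenitors, and its gene Pdgfra (ENSMUSG00000029231.15, chr5:75152292-75198215, plus strand) was the only one of the 10 where WT peaks were joined into 1 peak in mdx BMDM. The 250 bases before its RefSeq start (GRCm38.p6, chr5:75152001-75152250, plus strand) are shown because they lay wholly under H3K27me3 peaks in all 3 lists although they hold only 4 CG dinucleotides.
Pdgfra: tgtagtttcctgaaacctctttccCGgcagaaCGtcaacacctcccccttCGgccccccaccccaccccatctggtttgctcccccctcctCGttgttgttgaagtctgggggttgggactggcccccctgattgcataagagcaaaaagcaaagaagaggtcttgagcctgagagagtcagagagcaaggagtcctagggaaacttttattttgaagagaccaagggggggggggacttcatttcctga

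In WT BMDM the start of Pdgfra lay in a peak of 20.4 kb (chr5:75142001-75162400) with 1206 reads, followed inside the gene by peaks of 3.2 kb with 75 reads and 2.2 kb with 57 reads. In mdx BMDM 1 peak of 29.8 kb (chr5:75142401-75172200) with 1762 reads spanned all of them. In mdxTLR4-/- BMDM there were 4 peaks, of 14.8, 6.6, 2.4 and 2.8 kb, with 1008, 215, 46 and 64 reads. Within the window, the marked stretch ended at nearly the same place in the 3 genotypes, 19.3, 19.9 and 20.1 kb past the start, and most of the difference lay between the WT peaks. After peaks were merged across gaps of up to 2 kb, coverage was still 6.16 points higher in mdx than in WT BMDM, and after merging across up to 5 kb 1.16 points higher. Coverage was accordingly 39.5% in WT, 48.0% in mdx and 41.8% in mdxTLR4-/- cells. Over the whole 38.0 kb region, which reaches upstream of the window and there holds small peaks in WT and mdxTLR4-/- BMDM and none in mdx BMDM, the reads in peaks were 1428, 1762 and 1411, a ratio of mdx to WT of 1.23 (95% interval 1.15 to 1.32) as deposited and of 1.01 per 1000000 reads in peaks. The rise of coverage at Pdgfra in mdx BMDM was also named in earlier results of these data. No H3K27ac peak touched its window.

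PDGFRβ is the receptor of pericytes and other mural cells. Its gene Pdgfrb (ENSMUSG00000024620.11, chr18:61045150-61085061, plus strand) lies next to the macrophage gene Csf1r, which encodes the receptor of macrophage colony-stimulating factor and begins 15.5 kb past the end of Pdgfrb. A WT domain of 77.0 kb with 3170 reads ran from 58.1 kb upstream of the Pdgfrb start to 18.9 kb into the gene, and also enclosed the genes Cdx1 and Slc6a7. In mdx BMDM the same stretch was in 4 pieces separated by gaps of 0.8 to 1.0 kb, with 96.1% of the bases still under peaks and 3502 reads. In mdxTLR4-/- BMDM it was in 2 pieces with 99.0% of the bases and 3072 reads. The domain was therefore split in both and lost in neither, and its end inside the gene lay 18.5 kb past the start in mdx and 21.2 kb in mdxTLR4-/- cells.

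Near the 3' end of Pdgfrb, where the WT list had no peak, mdx BMDM had a small peak of 1.8 kb (chr18:61080201-61082000, 44 reads). The mdxTLR4-/- list also had a peak of 1.8 kb there (chr18:61079001-61080800, 41 reads), but it covered only 600 bp, or 33.3%, of the mdx peak. The coverage of the window was 51.9% in WT, 51.1% in mdx and 61.1% in mdxTLR4-/- cells, and the last difference, of 10.0 points, only just passed the limit of 10 points; over the gene body alone it was 9.52 points and after merging across 2 kb 6.10 points, which ended the call. WT BMDM had an H3K27ac peak with 8 reads in the uncovered part of the gene, absent from the other lists. Over Csf1r, the main H3K27ac peak had 154 (WT), 165 (mdx) and 96 (mdxTLR4-/-) reads, beginning 58.1, 60.5 and 59.9 kb past the Pdgfrb start, and no H3K27me3 peak touched that gene in any list. The marks of these neighbours thus stayed apart in each genotype.

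**Figure D4:**
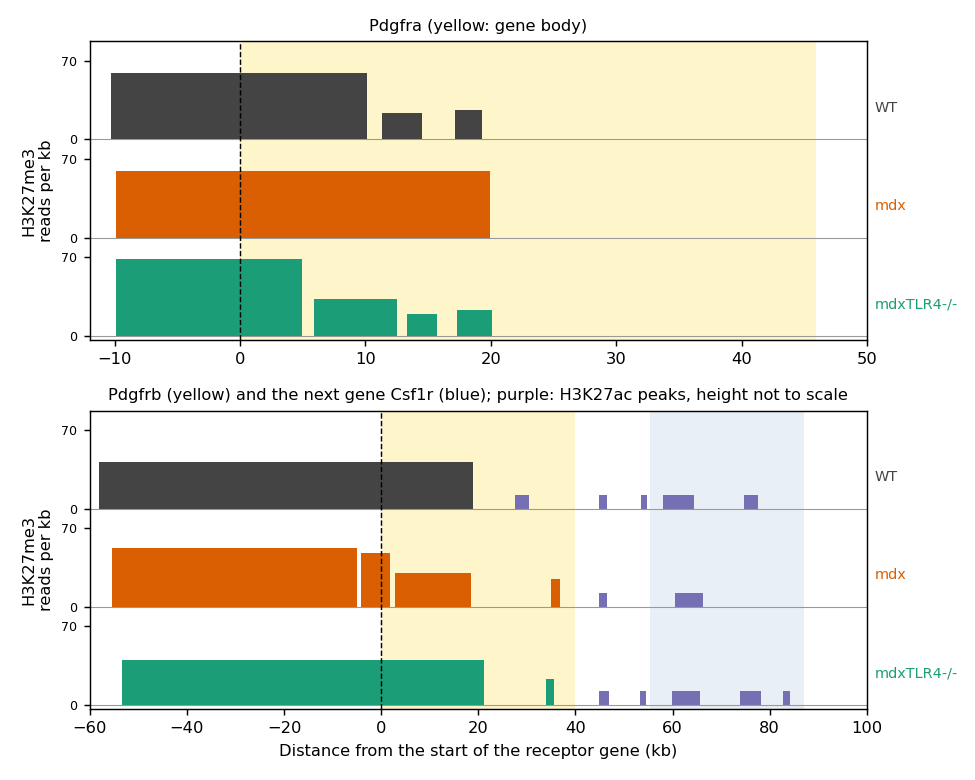
H3K27me3 peaks at Pdgfra (top) and from Pdgfrb to Csf1r (bottom), with distance from the start of the receptor gene in kb on the x axis and reads per kb of peak as bar height; purple bars mark H3K27ac peaks. At Pdgfra 3 WT peaks are joined in 1 mdx peak of 29.8 kb, and at Pdgfrb the 77.0 kb WT domain is cut into pieces in mdx BMDM and ends before the H3K27ac peaks of Csf1r.

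To separate splitting from loss, each of the 15 WT peaks that touched the windows was followed in the other lists. A peak was called kept when 1 peak of the other list covered at least 80% of it, and split when at least 2 did so once gaps of up to 2 kb were bridged. In mdx BMDM 7 of the 15 were kept and 6 were split, while 2 were partly lost (the Vegfa body peak and the inner Pdgfa peak) and 0 were lost. Over all 28143 WT peaks, 42.8% were kept, 19.3% split and 38% partly or wholly lost. In mdxTLR4-/- BMDM 6 of the 15 were kept (31.3% of all), 6 were split (17.4% of all), and 3 were partly or wholly lost (51.3% of all), namely the Vegfa body peak, the 3' peak of Pgf and the Pdgfc peak. The Pdgfc peak was close to the limit. In both genotypes 64.5% of its bases lay under peaks. In mdx BMDM the bridged gap raised this to 80.6%, just over the limit of 80%, so it was counted as split.

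Length and density of the peaks moved with these counts. Of the 453 WT peaks of at least 50 kb, which include the long peaks at Vegfa and Pdgfrb, 66.4% were split, 33.6% kept and 0% partly or wholly lost in mdx BMDM, and in mdxTLR4-/- BMDM 77.5% were split, 21.9% kept and 0.662% partly or wholly lost. In the highest density quartile, which held 10 of the 15 peaks, 10.4% of WT peaks were partly or wholly lost in mdx and 16.4% in mdxTLR4-/- cells, against 71.8% and 86.3% in the lowest. In bases, the 15 peaks spanned 486 kb in WT BMDM, of which 93.5% lay under peaks in mdx and 93.9% in mdxTLR4-/- cells. The uncovered bases were mostly at the outer edges (4.86% and 4.74%) and less in inner gaps (1.61% and 1.40%). The inner gaps measured 0.8 to 1.4 kb, and the peak caller bridges gaps of up to 600 bp. These shares of bases are for whole peaks, which reach beyond the windows. Of the long peaks of 207.2, 70.2 and 77.0 kb, 0.486%, 5.94% and 31.0% lay inside the windows. Within the windows alone, 8 of the 15 were kept, 3 split, 3 partly lost and 1 lost in mdx BMDM.

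Seen from the mdx list, 14 of the 17 peaks at these genes were kept in WT BMDM (46.7% of all), 1 was in several pieces (Pdgfra; 8.2% of all 41780 mdx peaks) and 2 were partly or wholly absent from WT (45.1% of all). Of the same 17 peaks, 10 were kept in mdxTLR4-/- BMDM (33.2% of all), 3 were in several pieces (11.7% of all) and 4 were partly or wholly absent (55.1% of all).

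**Figure D5:**
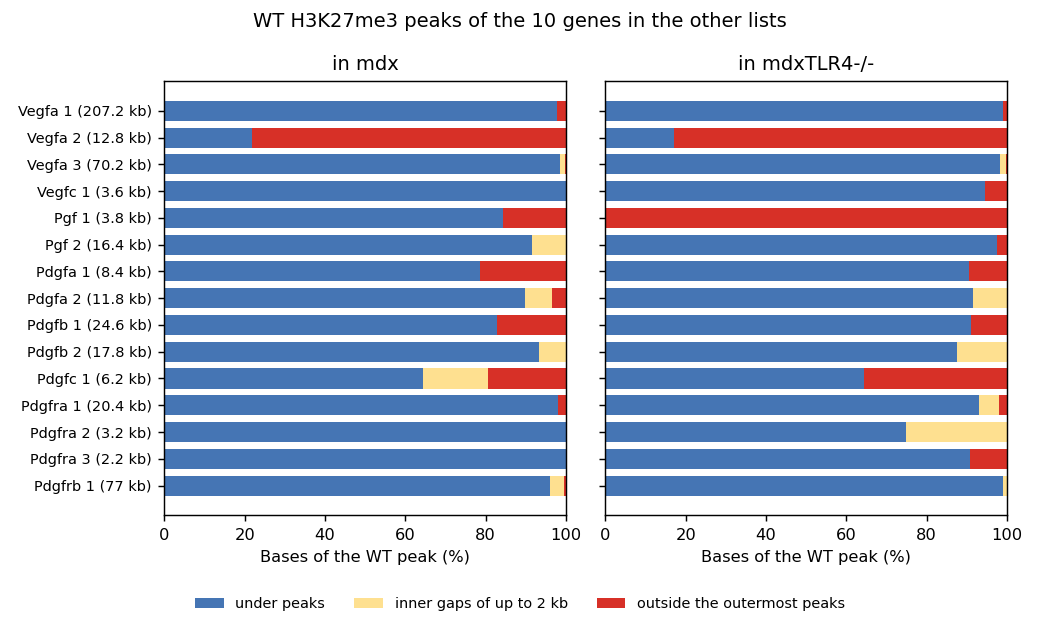
Bases of each of the 15 WT H3K27me3 peaks (rows, with the peak length) in percent on the x axis, divided into those under peaks of the other list, those in inner gaps of up to 2 kb and those outside the outermost peak. The Vegfa body peak (Vegfa 2) keeps 21.9% in mdx and 17.2% in mdxTLR4-/- cells and the 3' peak of Pgf (Pgf 1) keeps 0% in mdxTLR4-/- BMDM, while the long peaks keep at least 96.1% of their bases.

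The direction of read density depended on the scaling for the genes as a group. Over the 8 genes with H3K27me3 peaks, the density of mdx peaks was above that of WT peaks in 6 as deposited, with a median ratio of 1.09. Per 1000000 reads in peaks it was above WT in 1 of 8, with a median of 0.890. In mdxTLR4-/- BMDM 1 of 8 was above WT as deposited (median 0.947) and 7 of 8 per 1000000 reads in peaks (median 1.07). Over 17103 regions with peaks in all 3 lists, the median ratio to WT was 1.22 in mdx and 0.959 in mdxTLR4-/- cells as deposited. The gene with a density above WT in mdx BMDM under every scaling was Pdgfc (1.79 as deposited, 1.46 per 1000000 reads in peaks), where the mdx peaks were shorter. Over the same 6.2 kb region in both lists, however, the ratio of reads at Pdgfc was 1.15 as deposited (95% interval 0.894 to 1.49) and 0.941 per 1000000 reads in peaks, so that the direction over the whole region depended on the scaling.

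H3K27ac was rare at these genes. A peak touched the windows of 2 of the 10 in WT (Pdgfc and Pdgfrb; 39.9% of all protein-coding genes), 2 in mdx (Vegfb and Pdgfc; 34.5% of all) and 2 in mdxTLR4-/- BMDM (Pdgfa and Pdgfc; 36.5% of all). The other 6 genes (Vegfa, Vegfc, Pgf, Pdgfb, Pdgfd and Pdgfra) had none in any list, as had 51.9% of all. These peaks held 5 to 13 reads each, and the mdxTLR4-/- list rests on 1 library. The mdx peak at Vegfb entered the window by 328 bp from its downstream side, and peaks of WT and mdxTLR4-/- BMDM overlapped it by 1600 and 1200 bp outside the window, so that this difference was an edge and not a new peak. This mdx peak also overlapped the neighbouring gene Fkbp2, which lies 1.97 kb from Vegfb on that side. An H3K27ac peak lay over the start of 0 of the 10 genes in WT (24% of all), of Pdgfc in mdx (20.6% of all) and of Pdgfa in mdxTLR4-/- BMDM (20.9% of all). At Pdgfa it had 5 reads, overlapped the H3K27me3 peak over the outermost start and did not touch the upstream bases of the RefSeq starts. Both marks touched the window of 2 genes in WT (10% of all), 1 in mdx (9.2% of all) and 2 in mdxTLR4-/- BMDM (8.92% of all).

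The base composition of the promoters varied widely. For 8 of the 10 genes, 11 RefSeq promoters were examined, and promoters of Pdgfb and Pdgfrb were not examined. Any promoter entry on chromosome 18, where Pdgfrb lies, was left out of the examined genes. CG counts in the 250 upstream bases were 30 for Vegfc, 26 for Vegfb, 28 and 19 for Pdgfa, 20 and 7 for Pgf, 11 and 7 for Vegfa, 4 for Pdgfra and 3 each for Pdgfc and Pdgfd, against a median of 6 over 32841 promoters. Both CG-rich and CG-poor promoters lay under H3K27me3 peaks (Vegfc and Pdgfra), and both occurred among the genes with no such peak (Vegfb and Pdgfd). The letters GGGCGG, searched on both strands, occurred in the promoters of Vegfa, Vegfb, Vegfc, Pgf and Pdgfa and in 32.7% of all promoters, and ACGTG occurred at the internal Vegfa start and in 16.6% of all. These are matches of letters and not binding sites.

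Of 22 other genes of these pathways, 13 had an H3K27me3 peak in WT (38.4% of all protein-coding genes), 15 in mdx (41.3% of all) and 14 in mdxTLR4-/- BMDM (39% of all). From WT to mdx, coverage was lower by at least 10 points at 2 genes (5.51% of all), the VEGF receptor gene Kdr (16.3% to 4.65%) and Pdgfrl (28.9% to 16.7%). It was higher at 4 (4.9% of all), namely Plat, which encodes a protease that activates PDGF-C (50.8% to 63.9%), the proprotein convertase gene Furin (0% to 12.3%), the hypoxia factor gene Epas1 (36.3% to 55.2%) and the endothelial receptor gene Tie1 (39.4% to 49.9%). From mdx to mdxTLR4-/- BMDM it was lower at 4 (7.73% of all), Furin (to 0%), Epas1 (to 40.7%), Tie1 (to 4.82%) and the Notch ligand gene Dll4 (87.9% to 76.7%), and higher at 1 (2.52% of all), Plat (to 74.2%). H3K27ac peaks were present in all 3 lists at 5 genes (26.7% of all), the coreceptor genes Nrp1 and Nrp2, the protease genes Plau and Furin, and Hif1a, which encodes the hypoxia-inducible factor upstream of VEGF-A.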

How the data were processed

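Chromatin had been digested by micrococcal nuclease with no crosslinking step. Per the paper's methods, the authors aligned reads to mm10 (Bowtie2), pooled replicates and ran SICER2 (window 200 bp, gap 600 bp, FDR 0.01); the submitters' processing notes list CASAVA 1.8, cutadapt 1.15, Bowtie2 2.3.4 and SICER 2.0. The deposited values are counts of ChIP reads, 1 count for each peak, with no scaling by the authors. Positions were read as 1-based mm10 coordinates, and genes and exons came from GENCODE vM21. The groups were the genotypes of the labels, with mTLR4 read as mdxTLR4-/-.

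Coverage of windows, the fate of each WT peak, and densities were computed with Python 3.11.15, numpy 2.4.6, scipy 1.17.1 and matplotlib 3.10.9. Read ratios have 95% exact Clopper-Pearson intervals. Coverage differences of 10 points were called. The procedure was tested on simulated peaks. The genes, the 22 pathway genes and the marker lists were chosen with earlier results of these data known. Named were all 10 genes, pathway genes called in a comparison or with H3K27ac in all lists, protein-coding genes inside peaks of at least 50 kb, and the 5 genes most like Vegfa in coverage (1 of these is not reported here). Promoters came from RefSeq (GRCm38.p6). Alternatives were the peak length (2 kb), equal numbers of peaks, a density of 1.5 times the 1st percentile, other windows, limits and gaps, and other scalings. A ratio over whole regions was added after seeing the data. Input and single-replicate data were not analysed here.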

Additional observations from a re-analysis of the deposited data

How the results depend on the processing

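No paired analysis was possible because the replicates were merged before peaks were called and the lists carry no replicate numbers, and for the same reason no replicate could be left out. Of the 65 recomputed counts, 34 stayed within 1.5 times the reported count. Shares over all protein-coding genes or all peaks were not computed for these settings, so the counts below have no background to be read against.

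With equal numbers of peaks per list, coverage was lower in mdx than in WT BMDM in 2 genes, higher in mdxTLR4-/- than in mdx BMDM in 2, and H3K27ac touched 1 gene in WT BMDM. With a density of at least 1.5 times the 1st percentile these counts were 0, 2 and 1, H3K27ac touched 1 gene in mdxTLR4-/- BMDM, and 1 WT peak was partly or wholly lost in mdx BMDM. Over the gene body only, coverage was lower in mdx than in WT BMDM in 3 genes and higher in mdxTLR4-/- than in mdx BMDM in 0, and H3K27ac touched 1 gene in mdx BMDM. Within 2.5 kb of the start, coverage was lower in mdx than in WT BMDM in 4 genes, lower in mdxTLR4-/- than in mdx BMDM in 0 and higher in 2, and H3K27ac touched 0, 1 and 1 genes in WT, mdx and mdxTLR4-/- BMDM. The 4 genes lower in mdx there were Pdgfb (decreased by 24.0 points), Pdgfc (by 21.7), Vegfa (by 18.6) and Pdgfrb (by 13.0). After merging across 2 kb, coverage was lower in mdx BMDM in 2 genes and higher in 1. A limit of 5 points gave 3 lower and 1 higher in mdx than in WT BMDM and 2 lower and 2 higher in mdxTLR4-/- than in mdx BMDM, and a limit of 20 points gave 0 and 0 for the latter. With at least 50% remaining as the limit, 1 WT peak was partly or wholly lost in mdx BMDM, and within the windows alone 3 were split and 4 partly or wholly lost. With only peaks of at least 2 kb, 5 WT peaks were split and 3 partly or wholly lost in mdx BMDM. With at least 10 reads, H3K27ac touched 1, 1 and 0 genes in WT, mdx and mdxTLR4-/- BMDM.

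The ratio of mdx to WT density turned from above to below 1 at Pdgfra, Pdgfrb, Pgf, Pdgfa and Pdgfb under every scaling. At Pdgfra it was 1.14 as deposited, 0.931 per 1000000 reads in peaks, 0.979 relative to the 1st percentile and 0.936 relative to shared regions. In the same order it was 1.14, 0.932, 0.980 and 0.937 at Pdgfrb, and 1.09, 0.893, 0.939 and 0.898 at Pgf. It was 1.09, 0.888, 0.933 and 0.892 at Pdgfa, and 1.06, 0.866, 0.911 and 0.871 at Pdgfb. Among these genes, the interval as deposited lay above 1 at Pdgfra (1.06 to 1.23) and Pdgfrb (1.09 to 1.20) and included 1 at the others. At Vegfa the ratio as deposited was 0.858 over peaks touching the window and 1.14 over whole regions, an alternative chosen after seeing the data. Each of the called changes of single genes lost its call under some alternative: Vegfa with the density limit (decreased by 5.65 points), Pgf with equal numbers of peaks and with the density limit (decreased by 2.39 points in both) and near the start (0), and Pdgfrb over the gene body (9.52) and after merging across 2 or 5 kb (6.10 in both). With equal numbers of peaks and with the density limit, the count of genes lower in mdxTLR4-/- than in mdx BMDM stayed at 1 with Pdgfra (decreased by 10.8 points) in place of Pgf. In both settings Vegfa was called higher in mdxTLR4-/- than in mdx BMDM (by 11.3 points). After merging, the count of higher genes stayed at 1 without Pdgfrb. It was Pdgfa after merging across 2 kb (by 13.2 points) and Vegfa after merging across 5 kb (by 15.9 points). The unknown library depth limits every statement on density, and the low H3K27ac counts limit those on single H3K27ac peaks.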

Other observations

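Among the protein-coding genes whose coverage over the 3 H3K27me3 lists was most like that of Vegfa, by the sum of absolute differences, were Olfr1328 (90.9%, 37.1% and 30.3% in WT, mdx and mdxTLR4-/- BMDM, a sum of 12.7 points), Gdf5 (84.7%, 25.1% and 36.4%, a sum of 13.8), Lypd4 (89.9%, 40.1% and 30.0%, a sum of 14.5) and Prickle4 (69.9%, 31.1% and 28.9%, a sum of 15.7). Prickle4 lies on chromosome 17, as does Vegfa, and the others lie on chromosomes 4, 2 and 7. The likeness covers 3 values per gene, and the genes share the lists.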
